A study of Xenopus laevis with 2 samples.

Results

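The genes described here build and control the embryonic epidermis of Xenopus laevis: keratins, desmosomal and cornified envelope genes, tight junction genes, epithelial cadherins and epcam, epidermal transcription factors, and 2 epidermal secretion genes, the lectin itln1 and the cement gland gene ag1. They were chosen by gene symbol on an Affymetrix Xenopus laevis expression array, from probe sets with 1 symbol; the rule uses no values but was written with earlier results of these data known. The choice gave 79 probe sets for 66 genes, of 7531 genes named by such probe sets. By the labels, one array was made from embryos depleted of Derriere (gdf3), a secreted TGF-beta family ligand, with 2 ng of antisense morpholino injected with GFP into the lateral side of each dorsal blastomere of 4-cell embryos. The other was made from embryos labelled wildtype, and the labels do not say whether these were injected. Both arrays used dorsal posterior fragments of stage 18 neurulae, described as mostly mesoderm, to ask which genes depend on Derriere there. The labels give no strain and do not say how many embryos went into each array.

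The surface of the frog embryo is an epithelium of an outer and an inner layer. BMP signalling directs ectoderm to this fate, and transcription factors such as Dlx3, Grhl1, p63 and Foxi1 act in it. Keratins are intermediate filament proteins that assemble from paired type I and type II chains. Desmosomes anchor these filaments at cell contacts through plakoglobin, plakophilins and plakins, while tight junctions, built on claudins and occludin, seal the space between cells and cadherins hold neighbouring cells together.

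With 1 array per condition, nothing below was checked in replicates, no p-value can be given, and the number of arrays limits precision. The single probe set of the targeted gene, gdf3.S, read 2318.6 in the array labelled Derriere depleted and 552.0 in the array labelled wildtype, a 4.17-fold higher signal where the label says depleted. A control probe set for EGFP read 10 in the array labelled Derriere depleted and 72.7 in the array labelled wildtype. Both EGFP readings were dim, under the signal of 75 required below for a ratio. The reading of 10 was also under 19.7, the floor to which lower signals were raised. By these rules no ratio would be taken from the EGFP probe set. A morpholino need not lower its target's transcript. The higher EGFP reading came from the array not labelled as GFP-injected. Whether the labels were exchanged was not tested, and every direction below is that of the labels and would turn around if they were. Different probe sets of 1 gene on these arrays differed in log2 ratio with an SD, pooled from 580 genes, of 0.228. This spread pools dim and bright genes and may include differences in the transcripts that the probe sets read. It leaves out any error shared by a whole array and says nothing of variation between embryos. Each log2 ratio sets the Derriere depleted label over the wildtype label and is centred on the median probe set.

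A ratio was taken only for probe sets whose mean signal over both arrays reached 75, the median of all probe sets. Of the 79 member probe sets 49 passed, and these measured 42 of the 66 genes. Just 1 of the 49, that of cdh1.S, was under 75 in one of the arrays, so that it passed through the array where it is high. Of the 42 genes, 32 had a log2 ratio above 0, against 49.2% of all 4543 genes measured the same way. At least 2-fold higher were 2 of the 42 (cnfn.1.L and ag1.S), against 0.374% of all genes, and 0 were at least 2-fold lower, against 0.242%. At least 1.5-fold higher were 5, cdh1.S among them, against 2.00%, and 0 were at least 1.5-fold lower, against 3.08%. The median log2 ratio of the 42 was 0.18, and that of all genes was -0.01. With no filter the median over all 66 genes was 0.08, with 37 above 0, where 39.8% of all 7531 genes were. In that setting probe sets at or under the floor in both arrays, 14 of the 79 member probe sets among them, have a ratio of 0. More of one cell type and more RNA per cell cannot be told apart in such tissue pieces.

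**Figure D1:**
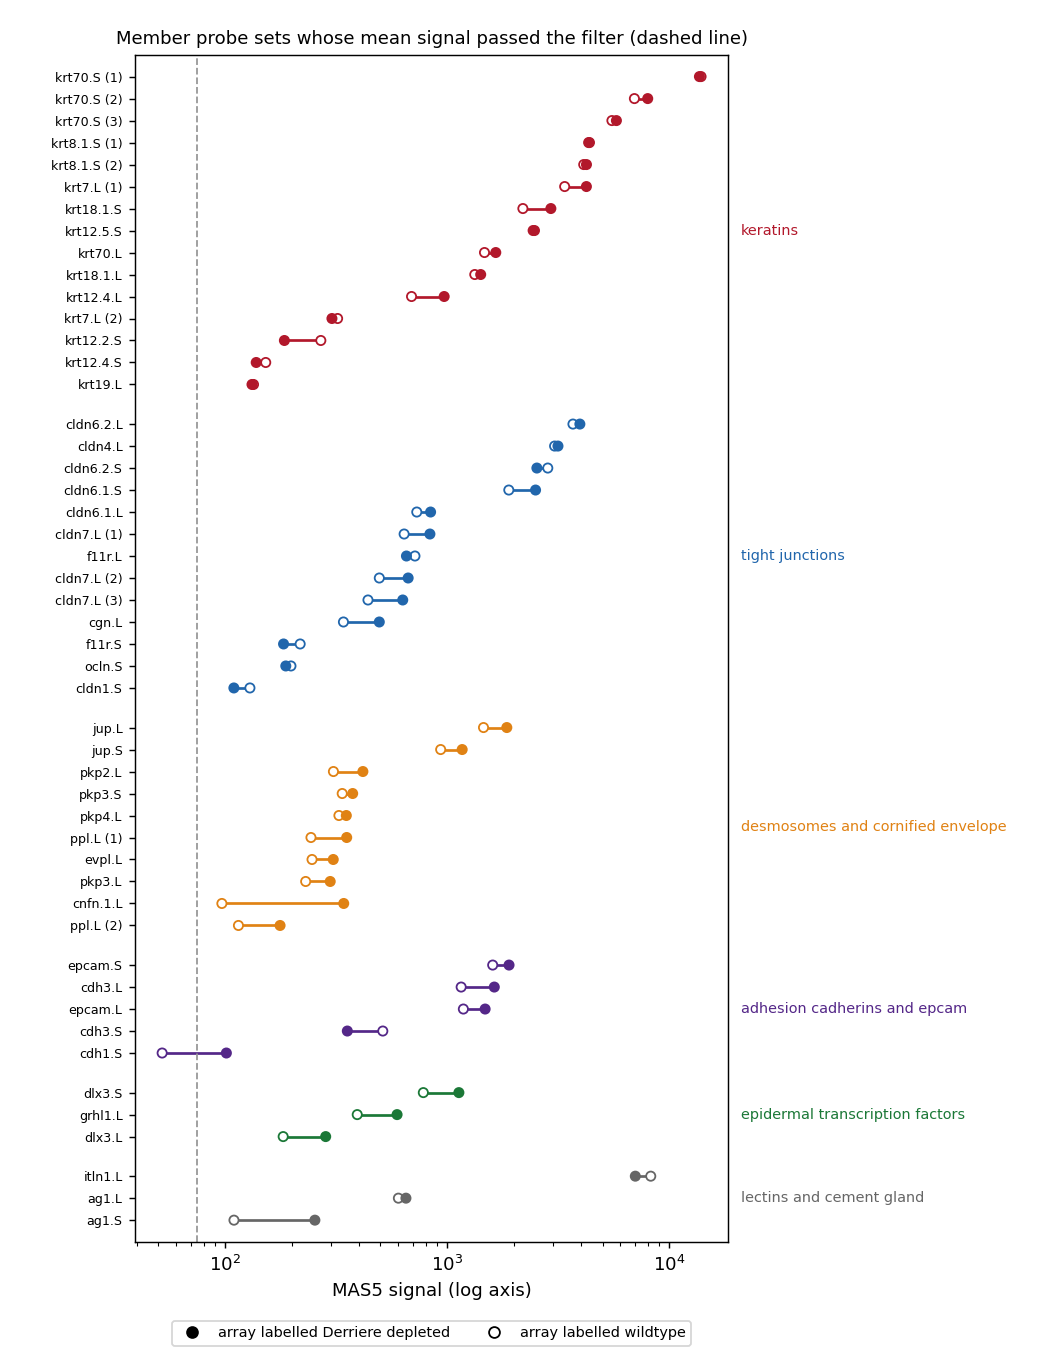
MAS5 signal (log axis) of each of the 49 member probe sets that passed the filter, with filled circles for the array labelled Derriere depleted and open circles for the array labelled wildtype, coloured by role; numbers in brackets tell probe sets of 1 gene apart, and the dashed line is the filter at 75. All 10 probe sets of desmosomal and cornified envelope genes have the filled circle to the right, while several keratin and claudin pairs nearly coincide.

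The 3 measured epidermal transcription factor genes all read higher with the Derriere depleted label, where 49.2% of all genes did. The homeobox gene dlx3, a BMP-dependent factor that in Xenopus acts where epidermis borders the neural plate, was measured in both homeologs, the copies from the long (.L) and short (.S) subgenomes. The signal of dlx3.L was 283.4 in the array labelled Derriere depleted and 182.4 in the array labelled wildtype, a log2 ratio of 0.63. That of dlx3.S was 1127.7 in the array labelled Derriere depleted and 780.0 in the array labelled wildtype, a ratio of 0.52. The copies thus read alike, 0.10 apart on the log2 scale. The grainyhead factor gene grhl1.L, which in Xenopus is induced by BMP4 and acts on the epidermal keratin gene XK81A1 (krt12.4 here), read 594.1 in the array labelled Derriere depleted and 393.1 in the array labelled wildtype, a ratio of 0.59. These 3 values span 0.52 to 0.63 and each exceeds the probe set SD of 0.228. Of the 3, dlx3.L and grhl1.L were past 1.5-fold (0.585 on the log2 scale), against 2.00% of all genes. The call for grhl1.L is marginal: it ended under 4 alternative settings, at 0.53 to 0.58. That for dlx3.L ended, at 0.51, with a constant of 50 added to all signals. A filter at the 75th percentile of mean signal left dlx3.L without a ratio, so the group then rested on dlx3.S and grhl1.L.

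The other 3 transcription factor genes gave no ratio. The probe set of grhl3.L read 49.1 in the array labelled Derriere depleted and 44.5 in the array labelled wildtype, under the filter in both. The probe set of tp63.L, whose product p63 maintains basal epidermal cells, read 1.8 in the array labelled Derriere depleted and 1.9 in the array labelled wildtype. That of foxi1.L, a gene of early ectoderm in Xenopus, read 2.2 in the array labelled Derriere depleted and 1.0 in the array labelled wildtype. The last 2 genes lay far below 19.7, the 25th percentile of both arrays, so their signals have no order.

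Desmosomal and cornified envelope genes read higher throughout the measured set. All 9 genes that passed had a log2 ratio above 0, where 49.2% of all genes did. Their median was 0.34 and their range was 0.10 to 1.81. The cornifelin gene cnfn.1.L, named for a component of the cornified cell envelope, stood apart. It read 341.7 in the array labelled Derriere depleted and 96.6 in the array labelled wildtype, a 3.52-fold difference on 1 probe set. Without it the other 8 genes lay between 0.10 and 0.57. The homeolog cnfn.1.S was dim, at 16.2 in the array labelled Derriere depleted and 30 in the array labelled wildtype, and did not show the higher reading of cnfn.1.L.

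Plakins, which tie keratin filaments to the desmosome and are cross-linked into the cornified envelope, were represented by ppl and evpl. Periplakin, ppl.L, passed with 2 probe sets. They read 352.4 and 176.6 in the array labelled Derriere depleted, against 243.3 and 114.7 in the array labelled wildtype, with ratios of 0.53 and 0.61. Both probe sets point the same way and differ by less than 0.228. Another, dim probe set of ppl.L read 28.9 in the array labelled Derriere depleted and 5.5 in the array labelled wildtype. Envoplakin, evpl.L, read 306.5 in the array labelled Derriere depleted and 246.0 in the array labelled wildtype, a ratio of 0.31.

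Armadillo proteins of the plaque gave values of the same sign, from 0.10 to 0.43. Plakoglobin, which serves both desmosomes and adherens junctions, was measured in both copies. The signal of jup.L was 1853.6 in the array labelled Derriere depleted and 1455.8 in the array labelled wildtype, a ratio of 0.34, and that of jup.S was 1166.9 in the array labelled Derriere depleted and 933.7 in the array labelled wildtype, a ratio of 0.31. The copies differed by only 0.03, and 497 of the 524 homeolog pairs measured over all genes, jup itself among them, had a gap of at least that size. Among plakophilins, which bind desmosomal cadherins, pkp2.L read 0.43, from signals of 416.8 in the array labelled Derriere depleted and 307.1 in the array labelled wildtype. For pkp3.L the ratio was 0.36 and for pkp3.S it was 0.15. The related pkp4.L read 0.10, with 351.0 in the array labelled Derriere depleted and 325.1 in the array labelled wildtype, the lowest value of the 9 genes.

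Core desmosomal components beyond these could not be compared. Desmoplakin, the plakin of every desmosome, read 33.0 in the array labelled Derriere depleted and 36.8 in the array labelled wildtype for dsp.L. For dsp.S it read 12.1 in the array labelled Derriere depleted and 30.5 in the array labelled wildtype. The desmosomal cadherin gene dsc3.S read 17.3 in the array labelled Derriere depleted and 20.0 in the array labelled wildtype, and pkp4.S was dimmer still. These 4 genes were under the filter, with signals from 10.1 to 36.8. All 4 read lower with the Derriere depleted label, as the dim cnfn.1.S did, but gave no ratio. The measured set thus covers armadillo and envelope genes rather than the desmosome as a whole.

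Adhesion cadherins and epcam gave 4 positive ratios and 1 negative, where 49.2% of all genes were above 0. The epithelial cadherin gene cdh1.S read 101.2 in the array labelled Derriere depleted and 52.0 in the array labelled wildtype, a 1.93-fold difference. Its mean signal was just inside the filter, and its ratio was 0.56 when a constant of 50 was added to all signals. The epithelial adhesion molecule epcam read alike in its copies: epcam.L had 1480.3 in the array labelled Derriere depleted and 1181.3 in the array labelled wildtype, a ratio of 0.32, and epcam.S had 1896.7 in the array labelled Derriere depleted and 1601.2 in the array labelled wildtype, a ratio of 0.24. The classical cadherin gene cdh3, whose product is a main adhesion molecule of the early Xenopus embryo, was divided between its copies. The signal of cdh3.L was 1627.9 in the array labelled Derriere depleted and 1154.7 in the array labelled wildtype, a ratio of 0.49. That of cdh3.S was 354.7 in the array labelled Derriere depleted and 512.4 in the array labelled wildtype, a ratio of -0.54. By gene order in Xenopus_laevis_v10.1, an assembly consulted just for which genes adjoin, cdh3.S lies next to cdh1.S, so the neighbours read in opposite directions.

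Most measured keratins were bright, and most read close to 0, as most bright genes did. Of the 23 keratin genes on the array 11 passed the filter. Of these, 8 were above 0, where 49.2% of all genes were, and the median ratio was 0.07. At least 1.5-fold higher were 0, against 2.00% of all genes, and 0 were at least 1.5-fold lower, against 3.08%. Ratios within 0.25 of 0 were found for 8 of the 11, against 62.2% of all genes. The median of the keratins stayed between 0.00 and 0.10 over the alternative settings, so no direction is given for them as a group. The 0.00 came with no filter, where 10 keratin probe sets at or under the floor in both arrays have a ratio of 0. The lowest median in the other settings was 0.01. With all genes ranked by signal into 4 equal bins, 0.792% of the brightest bin and 3.70% of the dimmest were at least 1.5-fold higher. Bright genes as a whole thus varied less. Of the 1136 genes in the brightest bin, 792 were within 0.25 of 0.

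The keratin of the simple epithelial type, krt8.1.S (type II), passed with 2 probe sets that read 4367.2 and 4233.3 in the array labelled Derriere depleted, against 4329.6 and 4115.2 in the array labelled wildtype. The Affymetrix names of these probe sets differ only in suffix, so they may not be separate readings. The name of the second marks it as able to read other transcripts too. The ratio of krt8.1.S was 0.02, and its probe sets lay within 0.03 of each other. Its usual partner, type I keratin 18, read slightly higher: krt18.1.S had 2926.8 in the array labelled Derriere depleted and 2189.7 in the array labelled wildtype, a ratio of 0.41, while krt18.1.L had 1413.9 in the array labelled Derriere depleted and 1329.8 in the array labelled wildtype, a ratio of 0.08. The genes krt18.1.S and krt8.1.S are neighbours in the assembly. Another type II keratin, krt7.L, gave 0.32 and -0.09 on its 2 probe sets, which straddle 0.

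The embryonic type I keratin krt70.S was read by 3 bright probe sets. They had 13657.4, 7989.8 and 5774.8 in the array labelled Derriere depleted, against 13889.6, 6959.3 and 5512.0 in the array labelled wildtype. The log2 ratios were -0.03, 0.19 and 0.06, all within the probe set SD of 0. The Affymetrix names of the last 2 of these mark them as able to read other transcripts too. A further, dim probe set read 45.2 in the array labelled Derriere depleted and 43.4 in the array labelled wildtype. The homeolog krt70.L read 0.16.

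Embryonic epidermal keratins of the krt12 cluster did not read together. The gene krt12.4, long used as an epidermal marker in Xenopus under the name XK81A1, read 968.1 in the array labelled Derriere depleted and 690.3 in the array labelled wildtype for krt12.4.L, a ratio of 0.48 and the highest among the measured keratins. For krt12.4.S it read 137.9 in the array labelled Derriere depleted and 152.2 in the array labelled wildtype, a ratio of -0.15. Its neighbour krt12.5.S read 2469.2 in the array labelled Derriere depleted and 2435.1 in the array labelled wildtype, a ratio of 0.01. The lowest measured keratin was krt12.2.S, with 184.7 in the array labelled Derriere depleted and 269.5 in the array labelled wildtype, a ratio of -0.55. The gene krt19.L read -0.03.

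The remaining 12 keratin genes were under the filter. They include keratins known from adult or larval frog skin: krt51.L (XAK-A) read 1.1 in the array labelled Derriere depleted and 0.9 in the array labelled wildtype, krt55.L (XAK-B) 1.6 in the array labelled Derriere depleted and 0.5 in the array labelled wildtype, and krt62.L (XLK) 10.7 in the array labelled Derriere depleted and 12.9 in the array labelled wildtype. The 14 keratin probe sets under the filter had a median signal of 5.65 in the array labelled Derriere depleted and 13.3 in the array labelled wildtype. The brightest was krt19.S, at 56.8 in the array labelled Derriere depleted and 27.9 in the array labelled wildtype, and 10 of the 14 were at or below the floor of 19.7 in both arrays.

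**Figure D2:**
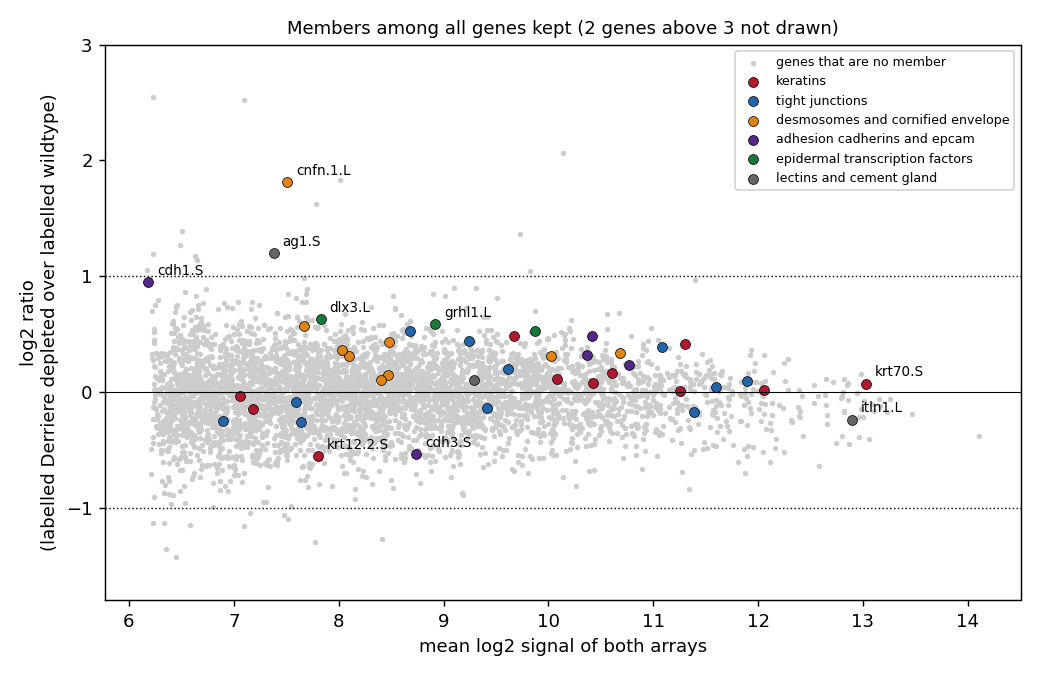
Log2 ratio of each gene (labelled Derriere depleted over labelled wildtype) against its mean log2 signal, with member genes coloured by role and genes that are no member in grey; dotted lines mark 2-fold, and 2 genes above 3 lie outside the axis. Most keratins sit close to 0, the 3 epidermal transcription factor genes lie between 0.52 and 0.63, and cnfn.1.L and ag1.S lie above the upper dotted line.

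Tight junction genes were divided about 0, as all genes were. Of 11 measured genes 6 were above 0, where 49.2% of all genes were, and 5 were below. The median ratio was 0.04 and the range was -0.26 to 0.53. At least 1.5-fold higher were 0, against 2.00% of all genes, and 0 were at least 1.5-fold lower, against 3.08%. The cytoplasmic linker cingulin, cgn.L, had the highest value, with 494.1 in the array labelled Derriere depleted and 340.7 in the array labelled wildtype, a ratio of 0.53. Claudin 7 was read by 3 probe sets that lay close together: cldn7.L had 835.1, 666.4 and 630.0 in the array labelled Derriere depleted, against 639.2, 494.2 and 439.4 in the array labelled wildtype. The ratios were 0.38, 0.42 and 0.51, with an SD of 0.07. The Affymetrix names of the first 2 probe sets differ only in suffix, so these may not be separate readings. Only cldn7.L among the tight junction genes had more than 1 probe set above the filter.

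Other claudins lay nearer to 0. The gene cldn4.L read 3150.4 in the array labelled Derriere depleted and 3042.2 in the array labelled wildtype, a ratio of 0.04. The neighbouring genes cldn6.1 and cldn6.2 were measured in both copies. For cldn6.1.S the signals were 2497.3 in the array labelled Derriere depleted and 1892.4 in the array labelled wildtype, a ratio of 0.39, and cldn6.1.L read 0.20. For cldn6.2.L the ratio was 0.09. The probe set of cldn6.2.S, whose Affymetrix name marks it as shared by several transcripts, read 2531.7 in the array labelled Derriere depleted and 2834.7 in the array labelled wildtype, a ratio of -0.17.

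The membrane proteins that read lower did so by small amounts. The junctional adhesion molecule gene f11r read 654.8 in the array labelled Derriere depleted and 715.1 in the array labelled wildtype for f11r.L, a ratio of -0.14. For f11r.S it read 183.1 in the array labelled Derriere depleted and 217.5 in the array labelled wildtype, a ratio of -0.26. It was the only one of 12 member homeolog pairs with both copies below 0, where 156 of the 524 pairs over all genes were. Claudin 1, cldn1.S, read -0.25 and occludin, ocln.S, read -0.09. The cytoplasmic scaffold gene tjp3 and the endothelial claudin gene cldn5 were under the filter in both copies, the brightest being tjp3.L at 33.5 in the array labelled Derriere depleted and 23.3 in the array labelled wildtype.

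Genes of secreted epidermal and cement gland products were measured in 3 copies. The intelectin itln1.L, a lectin secreted onto the surface of the Xenopus embryo, read 7025.5 in the array labelled Derriere depleted and 8244.9 in the array labelled wildtype, a ratio of -0.24, close in size to the probe set SD. The cement gland gene ag1.S had a probe set at 253.4 in the array labelled Derriere depleted and 109.5 in the array labelled wildtype, a 2.30-fold difference, and a dim one at 25.5 in the array labelled Derriere depleted and 26 in the array labelled wildtype. The homeolog ag1.L read 651.3 in the array labelled Derriere depleted and 602.3 in the array labelled wildtype, a ratio of 0.10. The 2-fold call for ag1 therefore rests on 1 of 3 probe sets.

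Homeologs offered a second reading of the same gene name. In 12 member pairs both copies passed the filter, and 8 pairs had both copies above 0, against 31.9% of the 524 pairs over all genes. In 1 pair both were below 0, against 156 of the 524 pairs. In 3 the copies had opposite signs, against 201 of the 524. The median gap between copies was 0.20 on the log2 scale in the members and 0.21 over all pairs. Gaps of 1 or more were found for ag1 (1.1) and cdh3 (1.03), 2 of the 5 such pairs among the 524. Copies of the desmosomal and regulatory genes jup, dlx3 and pkp3 lay 0.03, 0.10 and 0.21 apart. The keratin pair krt12.4 lay 0.63 apart, a gap reached by 31 of the 524 pairs. Near-identical copies can share signal between their probe sets, and how much they share was not tested.

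**Figure D3:**
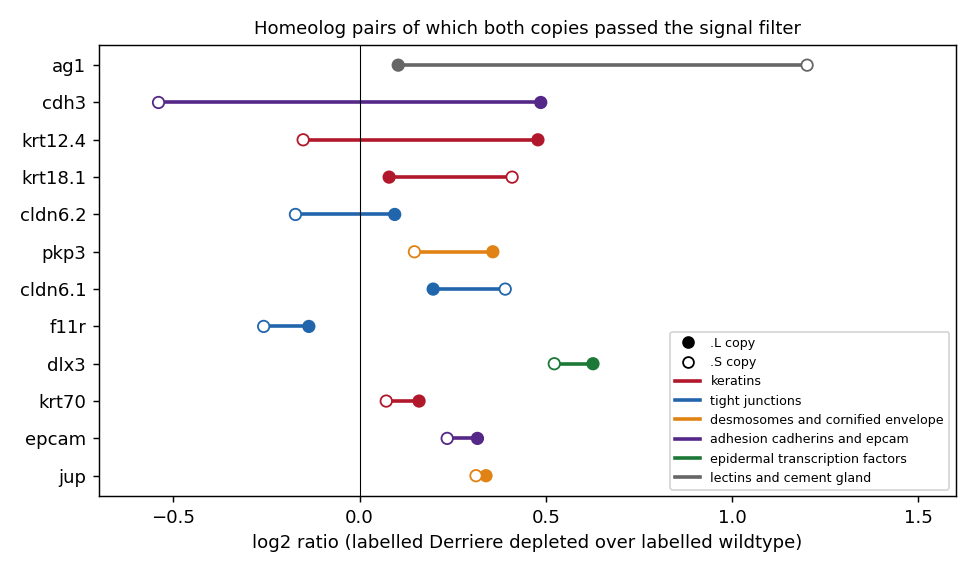
Log2 ratio (labelled Derriere depleted over labelled wildtype) of the .L copy (filled) and .S copy (open) of the 12 member genes of which both copies passed the filter, ordered by the gap between copies. The jup and epcam copies nearly coincide above 0, while cdh3 and krt12.4 have copies on opposite sides of 0.

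Set against the probe set SD of 0.228, 20 of the 42 genes had a ratio above it, where 19.0% of all genes did, and 5 had a ratio below its negative, where 22.7% of all genes did. Those 5 were krt12.2.S, cdh3.S, f11r.S, cldn1.S and itln1.L, from -0.55 to -0.24. They come from 4 of the 6 role groups; the desmosomal and cornified envelope genes and the transcription factors had no such member among those that passed.

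Other regulators of the epidermal programme, upstream and later, were taken from a list drawn up with earlier results of these data known, so its direction is no independent support. Of 24 genes that passed, 16 were above 0, where 49.2% of all genes were, and the median ratio was 0.20. At least 1.5-fold higher were 4, against 2.00% of all genes, and 0 were at least 1.5-fold lower, against 3.08%. The 4 included the BMP-responsive repressors ventx2.1.L and ventx2.1.S, at 0.81 and 0.65. The Affymetrix name of the ventx2.1.S probe set marks it as able to read other transcripts too. The others were znf750.S, whose human counterpart drives late epidermal differentiation, at 0.71, and gata2.L, a BMP-induced factor of ventral ectoderm and blood, at 0.64. The AP-2 gene tfap2a.L, an activator of epidermal genes in Xenopus, read 200.6 in the array labelled Derriere depleted and 148.0 in the array labelled wildtype, a ratio of 0.43. The BMP target genes id3.S and msx1.L were both at -0.10. A further entry named id3 was at -0.28, from probe sets at -0.08 and -0.49. The Affymetrix name of the second of these marks it as able to read other transcripts too. BMP-responsive genes on the list thus did not all read higher. The lowest of the list was dlx5.L, at -0.32, and 8 of the 24 genes were below 0.

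Partners of the junctions lay on both sides of 0. Of 11 genes on the list of junction and polarity genes that passed, 7 were above 0, where 49.2% of all genes were. The median was 0.06. At least 1.5-fold lower were 0, against 3.08% of all genes, and 1 was at least 1.5-fold higher, against 2.00%. That one was marveld3.L, a membrane protein of tight junctions, at 0.59, with 105.3 in the array labelled Derriere depleted and 69.7 in the array labelled wildtype, under the filter with the wildtype label. Beta-catenin, ctnnb1.S, read 0.50 and ctnnb1.L 0.06. The polarity genes llgl1.S and llgl2.L read -0.23 and -0.22, and dst.L, which encodes the plakin dystonin, read -0.49 from signals of 62.7 in the array labelled Derriere depleted and 87.8 in the array labelled wildtype.

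Genes of other epidermal cell types lay about 0. Of the 9 that passed, 3 were above 0, where 49.2% of all genes were, and the median was -0.05. The ciliary dynein gene dnai1.L, a mark of multiciliated cells, had the lowest ratio, from dim signals of 70.7 in the array labelled Derriere depleted and 105.1 in the array labelled wildtype, so that it passed the filter through the array labelled wildtype. The ciliary filament gene tekt1.L read -0.29 and the tubulin gene tubb4b.S read 0.27. The brighter homeolog tubb4b.L read -0.06, from 3320.1 in the array labelled Derriere depleted and 3434.1 in the array labelled wildtype. The factor of small secretory cells foxa1.S read 0.13, the ionocyte proton pump gene atp6v1a.L read 0.05, and the secretory gene agr2.S read -0.04. The ionocyte gene ca12.L was under the filter, at 24.1 in the array labelled Derriere depleted and 14.6 in the array labelled wildtype.

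Markers of the other tissues in the pieces were read on the same arrays. The labelled mesoderm was present in both by its markers: tbx6.L read 2464.9 in the array labelled Derriere depleted and 2294.1 in the array labelled wildtype, and msgn1.L read 1341.4 in the array labelled Derriere depleted and 1149.5 in the array labelled wildtype. Of the 17 mesoderm genes that passed, 7 were above 0, where 49.2% of all genes were, and 9 below, with a median ratio of -0.02. At least 1.5-fold lower were 3, against 3.08% of all genes, and 1 was at least 1.5-fold higher, against 2.00%. The lowest were the notochord and floor plate gene foxa4.S at -0.72 and the fast muscle genes tnnc2.S and mylpf.L at -0.68 and -0.67. The homeolog foxa4.L read -0.20. The segmentation gene hes5.10.L read 0.62, and the myogenic factor genes myod1.L and myod1.S read 0.06 and 0.07. Of 12 neural plate and neural crest genes 5 were above 0, where 49.2% of all genes were, and 7 below. Their median was -0.16, with a range from sox2.L at -0.60 to pax3.L at 0.35. Of these genes 1 was at least 1.5-fold lower, against 3.08% of all genes, and 0 were at least 1.5-fold higher, against 2.00%. Of the 3 endoderm genes that passed, a2m.S, bright in both arrays, read 0.04. The other 2 were dim and read higher. The gene sox17a.L had 147.8 in the array labelled Derriere depleted and 56.2 in the array labelled wildtype, a ratio of 1.39. It passed the filter through the array where it is high. The probe sets of sox17b.1.S had 220.1 and 100.8 in the array labelled Derriere depleted, against 78.5 and 57.7 in the array labelled wildtype. The dimmer of them passed in the same way, and the ratio of the gene was 1.14. At least 2-fold higher were thus 2 of the 3 endoderm genes that passed, against 0.374% of all genes. Further endoderm genes were under the filter and gave no ratio. Both copies of gata4, gata5 and gata6 read lower with the Derriere depleted label. The brightest, gata6.L, had 48.3 in the array labelled Derriere depleted and 48.6 in the array labelled wildtype. The homeolog sox17a.S had 42.9 in the array labelled Derriere depleted and 34.9 in the array labelled wildtype. The part of the tissue makeup of the pieces in the epidermal ratios was not tested.

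**Figure D4:**
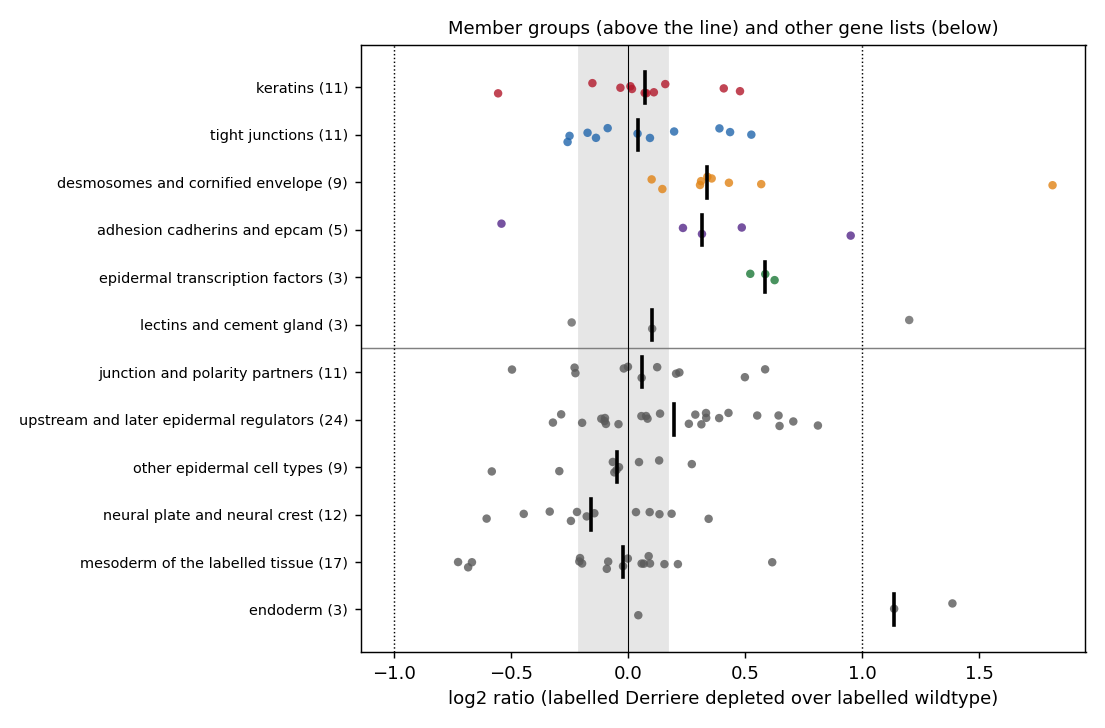
Log2 ratio (labelled Derriere depleted over labelled wildtype) of the genes that passed the filter in each member group (above the grey line) and in each further gene list (below it), 1 point per gene with vertical scatter for display; black bars are medians, numbers in brackets are genes, the shaded band spans the middle of all genes from the first to the third quartile (-0.21 to 0.17), and dotted lines mark 2-fold. The medians of the transcription factors (0.59), the desmosomal and cornified envelope genes (0.34) and cadherins and epcam (0.32) lie right of the band. Those of keratins (0.07) and tight junction genes (0.04) lie within it. Among the further lists, the medians of the upstream and later regulators (0.20) and of the 3 endoderm genes (1.14) also lie right of the band.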

How the data were processed

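The deposited values were MAS5 probe set intensities on a linear scale, 1 array per group, per the submitters' processing notes and the values themselves. Neither the MAS5 version nor a scaling target is given in the sources used here. MAS5 subtracts mismatch from perfect-match probe signal, which makes ratios of dim probe sets the least precise. Of 15611 probe sets, 120 controls were left out. Genes came from the platform annotation (9304 probe sets with 1 symbol), and all 79 member probe sets were matched by Entrez ID to the Xenopus_laevis_v10.1 gene table. Probe sets with several symbols were not used; 0 of these matched the members' rule.

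Signals under 19.7, the 25th percentile, were raised to it and turned to log2. The 7747 probe sets with a mean signal of at least 75 were kept, ratios were centred by subtracting their median (0.0089), and a gene was the mean of its kept probe sets. With 1 array per group, genes were counted by fixed sizes (1.5-fold, 2-fold) beside the same count over all 4543 genes. The members and lists were chosen with earlier results of these data known. Named were member genes past 2-fold, the largest ratios and highest signals of each role, all measured homeolog pairs, members under the filter, and up to 4 of the largest ratios of each epidermal and junction list; other members and list genes, and the choice among markers, were named after their values were seen. The steps were tested on simulated arrays with changes larger than 2-fold planted in bright probe sets only. Smaller changes, group medians and changes in dim probe sets were not covered by that test. Python 3.11.15, numpy 2.4.6, pandas 2.3.3, statsmodels 0.14.6 and matplotlib 3.10.9 were used.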

Additional observations from a re-analysis of the deposited data

How the results depend on the processing

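No paired analysis was possible because there was 1 array per group, and none could be left out. All 10 alternatives started from the deposited MAS5 signals. Leaving out the floor, or setting it at the 40th percentile, changed no member ratio. Leaving out the centring only shifted every ratio by 0.0089. With an offset of 50 replacing the floor, 1 member gene was past 2-fold in the higher direction. Past 1.5-fold were 2, where 0.947% of all genes were past 1.5-fold. In this setting ag1.S read 0.92, cdh1.S 0.56 and cnfn.1.L 1.41. The filter at the 75th percentile left 30 member genes and removed cnfn.1.L, ag1.S, cdh1.S and dlx3.L, among others. Of the member genes past 1.5-fold, only grhl1.L was still measured. With this filter 0 were past 2-fold or 1.5-fold in the higher direction, where 1.11% of all genes were past 1.5-fold. With homeologs averaged into 1 gene, 1 of 30 was at least 2-fold higher. At least 1.5-fold higher were 4, where 1.84% of all genes were. Shares of all genes past 2-fold under the alternatives are not given here. With quantile normalization, loess, the offset or the stricter filter, grhl1.L read 0.56, 0.57, 0.53 and 0.58, short of 1.5-fold, and with the offset dlx3.L read 0.51. With no filter, 37 of 66 member genes were above 0, where 39.8% of all genes were, and the median of the 66 was 0.08. At least 1.5-fold lower were 2 of 66, the dim desmosomal and cornified envelope genes dsp.S and cnfn.1.S. The share of all genes that low with no filter is not given here. The transcription factors had a median of 0.34 over all 6 genes, and ag1.S read 0.59. Probe sets at or under the floor in both arrays have a ratio of 0 in this setting, those of tp63.L and foxi1.L among them. The median of the 3 lectin and cement gland genes ranged from -0.07 to 0.21. The medians of the other groups stayed at or above 0: desmosomal and cornified envelope genes between 0.24 and 0.35, cadherins and epcam between 0.27 and 0.33, tight junction genes between 0.00 and 0.14. Of 42 member genes, 41 kept their sign in every alternative that measured them as single genes; krt70.S read -0.03 by its brightest probe set alone. Low signal over background limits the ratios of dim members most.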
